A study of Homo sapiens with 3 samples.

Results

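The receptors and ligands of the EGFR family were examined by RNA-seq in DU145, an established human prostate cancer cell line. The set was chosen by gene name and held 9 of the 58735 listed genes, 3 receptors (EGFR, ERBB2 and ERBB3) and 6 ligands (AREG, EREG, TGFA, HBEGF, BTC and EGF). The study asked how loss of PD-L1, the immune checkpoint ligand encoded by CD274, alters transcription in castration-resistant prostate cancer cells. There were 3 libraries. The control was labelled as a DU145 knockdown control. For its knockdown lines the paper names an empty lentiviral pLKO.1 vector as the control, without repeating this for RNA-seq. The libraries labelled PD-L1 Knockdown1 and Knockdown2 (named so below) came from DU145 cells with short hairpin RNAs against PD-L1. The paper calls these cells PD-L1sh1/2 and prints the sequence of 1 hairpin. All cells grew in medium with FBS, infected cells were selected with puromycin, and each knockdown label had 1 library. A difference between the knockdown libraries thus cannot be told apart from a difference between hairpins or cultures.

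The count totals lay between 14733088 and 15786457. CD274 counts were 204 (control), 213 (Knockdown1) and 224 (Knockdown2). The count of the targeted transcript was thus not lower where the labels place the knockdown. After scaling, the ratios to the control were 1.05 (0.861 to 1.28) in Knockdown1 and 1.03 (0.845 to 1.25) in Knockdown2. These intervals cover counting error only and include a modest fall. The paper states that its stable lines were checked by Western blot, with PD-L1 protein shown for knockdown DU145 cells. Protein was not examined here. The series text names BCPAP, a thyroid cancer line, and the control's column of counts is headed with RBM45, the name of another gene. Epithelial markers were all present, with 5 of 5 above 100 counts in every library and a summed level of 514 to 576 FPKM (reads per kilobase of gene and 1000000 reads). KLK3 and KLK2, markers of androgen-dependent prostate cells, were listed at 0 in all 3 libraries. Thyroid markers summed to 12.9 to 14.6 FPKM, nearly all from FOXE1. CD3E of 4 immune markers and DCN of 4 fibroblast markers were at 0, and these lists summed to at most 0.259 and 0.986 FPKM.

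EGFR and its relatives are receptor tyrosine kinases that pair up in the plasma membrane when a ligand binds, phosphorylate their own tails and feed the RAS-MAPK and PI3K-AKT cascades. The ligands are made as membrane-anchored precursors, and metalloproteases of the ADAM family cut them loose to act on the same or neighbouring cells. ERBB2 binds no known ligand and works as a partner, ERBB3 has a weak kinase and mainly binds neuregulins, and EGFR itself is a well known growth signal in prostate epithelium.

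The ligands belong together because each carries an EGF-like module, a short stretch with cysteines at fixed spacing that folds into the receptor-binding loop. The coding sequence of that stretch is shown for all 6 ligands, from GENCODE release 29 transcripts on GRCh38, read 5′ to 3′ on the coding strand with the 6 cysteine codons in capitals. The search used a fixed pattern of cysteine spacing, so EGF-like modules of another spacing would not be found. By this pattern each stretch was found once in its transcript. It is split between 2 exons, so the coordinates include an intron.
AREG (chr4:74449172-74450410, plus strand): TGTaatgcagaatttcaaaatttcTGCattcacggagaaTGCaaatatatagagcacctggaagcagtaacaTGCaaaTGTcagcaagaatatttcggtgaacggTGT
EREG (chr4:74381061-74382675, plus strand): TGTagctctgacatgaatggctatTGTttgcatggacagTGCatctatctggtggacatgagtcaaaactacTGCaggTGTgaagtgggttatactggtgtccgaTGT
TGFA (chr2:70456458-70465692, minus strand): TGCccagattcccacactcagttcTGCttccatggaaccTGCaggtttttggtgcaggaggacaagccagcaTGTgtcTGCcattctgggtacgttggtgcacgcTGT
HBEGF (chr5:140335997-140342711, minus strand): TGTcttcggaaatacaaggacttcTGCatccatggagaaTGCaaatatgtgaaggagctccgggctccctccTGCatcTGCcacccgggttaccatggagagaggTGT
BTC (chr4:74750689-74755935, minus strand): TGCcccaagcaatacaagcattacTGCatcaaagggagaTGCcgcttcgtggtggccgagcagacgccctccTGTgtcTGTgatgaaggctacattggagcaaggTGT
EGF (chr4:109994801-109999709, plus strand): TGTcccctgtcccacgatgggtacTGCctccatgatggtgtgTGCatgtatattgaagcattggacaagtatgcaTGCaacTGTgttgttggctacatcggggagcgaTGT
The stretch holds 36 codons in every ligand except EGF, where it holds 37. Aligned at the cysteine codons, the 15 pairs of ligands had 46.3% to 63.0% identical bases, with a median of 51.4%. TGFA and BTC were the most alike at 63.0%, and EREG and TGFA the least at 46.3%. AREG and EREG, the ligands with the most RNA in these cells, shared 50.9%.

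All 9 genes were expressed above the limit used for testing. AREG and EGFR led, EREG followed, and EGF lay far below the rest. AREG encodes amphiregulin, and its level was 55.6 FPKM in the control, 53.4 in Knockdown1 and 49.2 in Knockdown2. The level of EGFR was 48.9, 41.7 and 43.1 FPKM in the same order, and that of EREG, which encodes epiregulin, was 26.8, 22.1 and 23.0 FPKM. For AREG 96.6% and for EGFR 95.7% of the 19849 tested genes had a lower mean FPKM, against 20.6% for EGF. EGF is the founding ligand of the family.

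In the order of mean FPKM over the 3 libraries, AREG (52.7 ± 3.24, SD, n = 3) came before EGFR (44.6 ± 3.84), EREG (23.97 ± 2.51), ERBB2 (14.3 ± 0.870), TGFA (8.20 ± 0.263), HBEGF (5.19 ± 0.672), ERBB3 (3.67 ± 0.165), BTC (3.60 ± 0.422) and EGF (0.458 ± 0.101). These SDs span the control and the knockdown libraries together. ERBB3 and BTC were the only neighbours in this order whose ranges overlapped, and BTC was above ERBB3 in the control and in Knockdown1. The listed gene length joins the exons of all transcripts. Per kilobase of the longest coding transcript instead, a scale added after seeing the data, ERBB2 (mean 30.95) and EREG (mean 29.8) changed places with overlapping ranges, HBEGF and ERBB3 also overlapped, and ERBB3 and BTC no longer did.

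**Figure D1:**
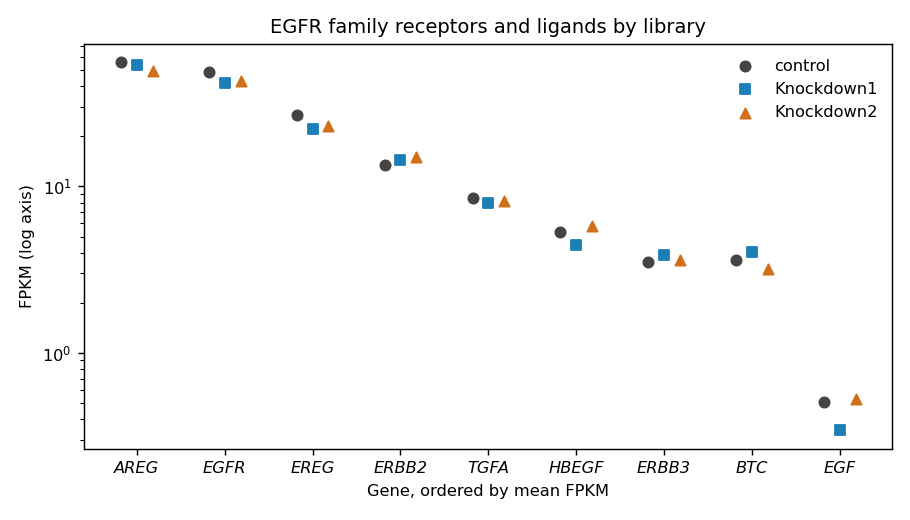
FPKM on a log axis for each EGFR family gene, 1 point per library (circle, control; square, Knockdown1; triangle, Knockdown2), with genes ordered by their mean. AREG and EGFR lie highest at 41.7 to 55.6 FPKM, EGF lies lowest at 0.342 to 0.527, and the 3 libraries of a gene lie close together compared with the distances between most genes.

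The family's RNA was concentrated in a few genes. AREG and EREG together made up 82.0% of the summed FPKM of the 7 ligands that bind EGFR (the 6 members and EPGN) in the control, 81.4% in Knockdown1 and 80.1% in Knockdown2. AREG alone made up 55.3%, 57.5% and 54.6%. On the receptor side EGFR held 74.3%, 69.5% and 69.7% of the summed receptor FPKM, and the ratio of EGFR to ERBB2 was 3.66, 2.88 and 2.86. The last ratio was highest in the control, with the knockdown libraries close to each other. Both values depend on the gene length used, and per kilobase of the longest coding transcript the ratio was 2.17, 1.70 and 1.69 and the share of EGFR 64.6%, 58.9% and 59.1%, again highest in the control. These ratios are given as a description, without a test. The 9 genes took 0.111%, 0.0990% and 0.101% of the counts of the 3 libraries.

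The question of the comparison was whether the receptors and ligands differ between the Knockdown1 and Knockdown2 libraries and the control. None of the 9 genes passed edgeR's quasi-likelihood test at a Benjamini-Hochberg adjusted p under 0.05. Over all tested genes the same test called 0.247% higher and 0.106% lower in the knockdown libraries. At an unadjusted p under 0.05 the test marked 1 member, EREG, where 11.7% of all tested genes were marked, and limma-trend marked 1 member and DESeq2 marked 0. With library totals alone, with genes of at least 1 count or with robust spread estimation, the test marked 2 members, EGFR beside EREG. The share of 11.7% belongs to the main setting. That of all genes under the other settings was not computed, so the members marked there cannot be set against a background. No member met the rule of an unadjusted p under 0.05 with an absolute log2 fold change above 1, which 2.48% of all tested genes met. The median log2 fold change of the members was -0.08, with 7 negative and 2 positive values, and that of all tested genes was 0.00. The control has no replicate, so each test has 1 residual degree of freedom and takes its spread from the knockdown libraries. Nothing in the labels describes these libraries as replicate cultures of 1 hairpin. The main test used a spread common to genes of like mean. A gene's own difference between the knockdown libraries therefore did not enter its SE or p. In bulk RNA, a smaller share of cells that express a gene and less RNA per cell cannot be told apart.

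Among the receptors, EGFR was lower than the control in both knockdown libraries and ERBB2 and ERBB3 were higher, none of them past the test. EGFR (ENSG00000146648, chr7:55019021-55211628, plus strand) is the receptor shared by the 6 ligands. It had 9098 counts in the control, 7721 in Knockdown1 and 8524 in Knockdown2. These were 617, 526 and 540 CPM (counts per 1000000 after scaling). The control lay above both knockdown libraries, which differed from each other by less than their counting error (ratio 1.03, 95% interval 0.995 to 1.06). The ratio to the control was 0.852 (0.827 to 0.879) in the first and 0.875 (0.849 to 0.901) in the second, where these exact intervals cover counting error only and compare libraries rather than conditions. The fitted log2 fold change was -0.21 (SE 0.11, edgeR quasi-likelihood adjusted p = 0.428), a change of -13.6% with a 95% interval from -25.4% to 0.021%. Of the 10861 genes averaging 100 counts or more, 33.5% had a larger absolute log2 fold change than EGFR.

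ERBB2 (ENSG00000141736, chr17:39687914-39730426, plus strand) encodes HER2, the partner receptor. Its counts were 2047, 2211 and 2457 in the control and Knockdown1 and Knockdown2, or 139, 151 and 156 CPM. The control was the lowest of the 3, with ratios of 1.08 (1.02 to 1.15) and 1.12 (1.06 to 1.19), yet the fitted log2 fold change of 0.14 (SE 0.12) had an edgeR quasi-likelihood adjusted p of 0.675. MIEN1 overlaps ERBB2 on the opposite strand with 240, 215 and 227 counts, and the sources used here do not say whether counting used the strand.

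ERBB3 (ENSG00000065361, chr12:56076799-56103505, plus strand), the neuregulin receptor, had 474, 515 and 519 counts, or 32.1, 35.1 and 32.9 CPM. Both knockdown libraries were above the control by less than the counting error, with ratios of 1.09 (0.961 to 1.24) and 1.02 (0.901 to 1.16). Its log2 fold change was 0.08 (SE 0.16, edgeR quasi-likelihood adjusted p = 0.894), with 0.03 without Knockdown1 and 0.13 without Knockdown2. ERBB4, the remaining receptor of the family and no member of the set, had 0 counts in all 3 libraries, which at 3 counts allows up to 0.204, 0.204 and 0.190 CPM.

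Among the ligands, EREG was lower than the control in both knockdown libraries beyond counting error. AREG was lower in both, but beyond counting error only in Knockdown2. TGFA was lower in both by less than counting error, and HBEGF, BTC and EGF did not keep 1 direction. EREG (ENSG00000124882, chr4:74365143-74388751, plus strand) binds EGFR and ERBB4. It had 2276, 1867 and 2077 counts, or 154, 127 and 132 CPM. As for EGFR, the control lay above both knockdown libraries, and those differed by less than counting error (ratio 1.03, 0.971 to 1.10). The ratios to the control were 0.824 (0.775 to 0.876) and 0.852 (0.803 to 0.905). The log2 fold change of -0.25 (SE 0.12, interval -0.49 to -0.02) was the largest in size among the 9 members, with an unadjusted p of 0.0333 and an edgeR quasi-likelihood adjusted p of 0.376. Among genes averaging 100 counts or more, 24.1% had a larger absolute log2 fold change. Of the 31-base words in EREG transcripts, 4.84% also occur in transcripts of other genes, against 2.43% for ERBB2, 2.46% for ERBB3 and 0% for EGFR, AREG, TGFA, HBEGF, BTC and EGF.

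AREG (ENSG00000109321, chr4:74445134-74455009, plus strand) binds EGFR. Its counts were 1360, 1300 and 1281, or 92.2, 88.5 and 81.1 CPM. The control was the highest library, the ratio of Knockdown1 to it was within counting error at 0.960 (0.889 to 1.04), and that of Knockdown2 was not, at 0.880 (0.814 to 0.9502). The knockdown libraries differed from each other beyond counting error (ratio 0.916, 0.848 to 0.991). The log2 fold change was -0.12 (SE 0.13, edgeR quasi-likelihood adjusted p = 0.759), with -0.18 without Knockdown1 and -0.06 without Knockdown2.

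TGFA (ENSG00000163235, chr2:70447280-70554193, minus strand) encodes TGF-alpha, an autocrine ligand of many carcinomas. It had 626, 586 and 637 counts, or 42.4, 39.9 and 40.3 CPM. Its 3 libraries agreed within counting error, with ratios to the control of 0.940 (0.839 to 1.05) and 0.9504 (0.850 to 1.06) and a log2 fold change of -0.08 (SE 0.15, edgeR quasi-likelihood adjusted p = 0.882).

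HBEGF and BTC differed between the knockdown libraries, in opposite directions. HBEGF (ENSG00000113070, chr5:140332843-140346631, minus strand) encodes heparin-binding EGF-like growth factor. It had 238, 199 and 276 counts, or 16.1, 13.6 and 17.5 CPM, so that the control lay between the knockdown libraries. The second knockdown library was 1.29 times the first (1.07 to 1.56), and neither differed from the control beyond counting error. BTC (ENSG00000174808, chr4:74744759-74794686, minus strand) encodes betacellulin. It had 151, 167 and 141 counts, or 10.2, 11.4 and 8.93 CPM, and the second knockdown library was 0.785 times the first (0.623 to 0.988), again with the control in between and within counting error of each. Their log2 fold changes were -0.05 (SE 0.20) and -0.01 (SE 0.23), with edgeR quasi-likelihood adjusted p of 0.946 and 0.988. The sign of both values depended on the library: without Knockdown1 the value was 0.12 for HBEGF and -0.20 for BTC, and without Knockdown2 it was -0.25 and 0.15.

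EGF (ENSG00000138798, chr4:109912884-110012266, plus strand) had 46, 31 and 51 counts, or 3.12, 2.11 and 3.23 CPM, and was the only member with a mean below 100 counts. The ratios to the control of 0.677 (0.415 to 1.09) and 1.04 (0.681 to 1.58) show how little this depth fixes, and the log2 fold change of -0.22 (SE 0.39, edgeR quasi-likelihood adjusted p = 0.875) turned to 0.05 without Knockdown1. The SE of EGF was larger than the change fitted for EGFR (-0.21), which was itself not called. The smallest change that could be detected was not computed.

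**Figure D2:**
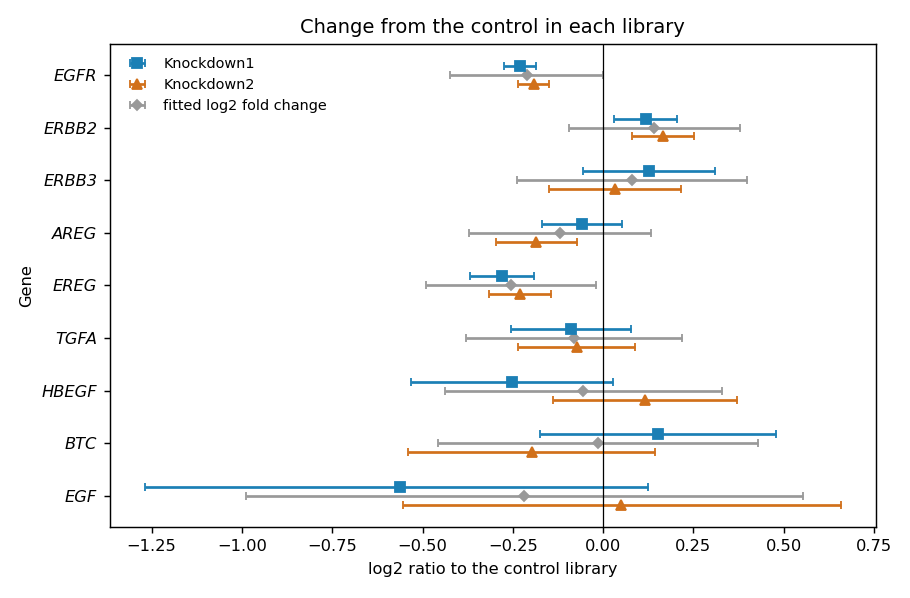
Log2 ratio to the control for each member: squares and triangles are Knockdown1 and Knockdown2 with exact 95% counting intervals, and grey diamonds are the fitted log2 fold change with its 95% interval. EGFR and EREG lie left of 0 and ERBB2 right of 0 in both libraries with counting intervals clear of 0, while the fitted interval of EREG alone is clear of 0.

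Read against all tested genes, these directions were common. Both knockdown libraries lay above the control for 2 of the 9 members (ERBB2 and ERBB3), as for 37.7% of all tested genes, and below it for 4 (EGFR, AREG, EREG and TGFA), as for 36.8% of all tested genes. The counting intervals were above the control in both libraries for 1 member (ERBB2), against 10.3% of all tested genes, and below it in both for 2 (EGFR and EREG), against 8.69%. Counting error is small for genes with many reads, so this last share depends on the count. The knockdown libraries differed from each other beyond counting error for 3 members (AREG, HBEGF and BTC), as did 26.2% of all tested genes.

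**Figure D3:**
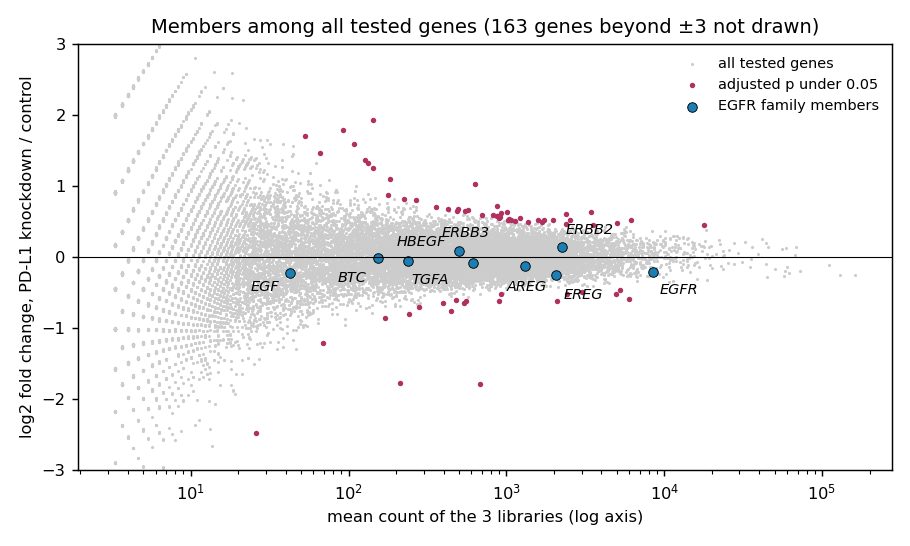
Log2 fold change of the Knockdown1 and Knockdown2 libraries against the control (vertical axis) and mean count of the 3 libraries (log axis) for all tested genes (grey), genes with an adjusted p under 0.05 (red) and the 9 members (blue). The members lie between -0.25 and 0.14, within the grey cloud, and none of them is called. The 163 genes beyond 3 in absolute value are not drawn.

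Genes whose pair of log2 ratios lay nearest to those of EGFR (-0.23 and -0.19) were FAT1, IFT57 and AP3S2, at distances of 0.00351 to 0.00591 on the log2 scale. Over only 2 ratios many genes come close, and 657 genes averaging 100 counts or more lay within 0.1 of EGFR.

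EREG, AREG and BTC are neighbours on chromosome 4, together with EPGN, which encodes epigen. EPGN and EREG are 49.8 kb apart, EREG and AREG 56.4 kb, and AREG and BTC 290 kb, with no coding gene in between and 486 kb over the whole stretch. Their levels were far from equal. EPGN had 4, 13 and 8 counts in the control and Knockdown1 and Knockdown2, or 0.149, 0.485 and 0.279 FPKM, and its log2 fold change was 1.33 (SE 1.05, edgeR quasi-likelihood adjusted p = 0.651). The level of AREG per length was 374, 110 and 176 times that of EPGN, ratios that rest on these few EPGN counts. The level of EREG was 7.42, 5.51 and 7.26 times that of BTC.

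**Figure D4:**
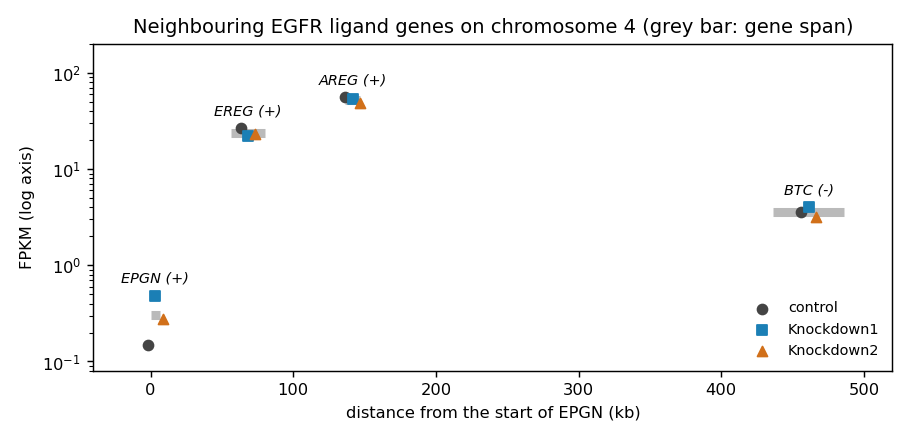
Position of the neighbouring ligand genes on chromosome 4, as distance from the start of EPGN in kb, against their FPKM on a log axis, with 1 point per library set side by side and a grey bar for the span of each gene at its mean level. EREG and AREG lie between 22.1 and 55.6 FPKM, BTC between 3.17 and 4.01, and EPGN below 0.5.

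AREG and EREG, the neighbours that led the ligands, were lower in both knockdown libraries by an amount that did not pass the test. For AREG in Knockdown1 it was within counting error, and 36.8% of all tested genes were lower in both libraries. The promoters of both genes, chosen after these values were seen, are shown, and a link to that direction was not tested. They are the 250 bases before the start in RefSeq's table for GRCh38.p14, with a cyclic AMP response element (CRE, TGACGTCA) and a TATA box (TATAAA) in capitals.
AREG promoter (chr4:74444886-74445135, plus strand): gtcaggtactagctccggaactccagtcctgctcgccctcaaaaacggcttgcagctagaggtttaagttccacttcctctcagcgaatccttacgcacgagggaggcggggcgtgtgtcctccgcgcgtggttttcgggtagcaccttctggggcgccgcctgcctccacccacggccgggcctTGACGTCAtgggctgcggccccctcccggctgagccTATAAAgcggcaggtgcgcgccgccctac
EREG promoter (chr4:74364895-74365144, plus strand): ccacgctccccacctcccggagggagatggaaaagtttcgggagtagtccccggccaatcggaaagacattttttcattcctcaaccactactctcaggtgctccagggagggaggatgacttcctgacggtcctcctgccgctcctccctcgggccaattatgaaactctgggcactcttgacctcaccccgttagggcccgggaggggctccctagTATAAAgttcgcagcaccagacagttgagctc
The AREG promoter holds the CRE 65 bases and the TATA box 29 bases before the start, and the EREG promoter holds a TATA box 32 bases before it and no CRE. Searched on both strands over the same length, the CRE letters occur in 1.65% and the TATA letters in 10.7% of 35116 promoters in the table. The EPGN promoter holds a TATA box 29 bases before its start, and the BTC promoter neither. Of the 9 members 8 had an entry in the table, all but ERBB3. EGFR, TGFA and HBEGF have a promoter with 2, 3 and 5 GC boxes (GGGCGG, in 42.6% of promoters), and AREG has 1. The AP-1 letters (TGANTCA, in 6.57%) were found before ERBB2, before EGF and before the downstream one of the 2 EGFR starts in the table, which also has TATA letters. No letters overlap between the marked motifs. A match describes the letters only.

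The neuregulins, ligands of ERBB3 and ERBB4, were low. NRG1 had 156, 120 and 188 counts, NRG2 had 81, 127 and 106, NRG4 had 83, 61 and 63, and NRG3 had 0 in all 3 libraries. FBXO22 overlaps NRG4 on the opposite strand with 784, 821 and 816 counts. As for ERBB2, whether counting used the strand is not known. The log2 fold changes were -0.07, 0.48 and -0.47 for NRG1, NRG2 and NRG4, and the smallest edgeR quasi-likelihood adjusted p was 0.481, for NRG2. NRG1, like HBEGF, was higher in the second knockdown library than in the first (ratio 1.46, 1.15 to 1.85).

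Genes that act around the receptors were taken from 5 lists with 55 genes, of which 54 were tested. The test called 1 of them lower and 0 higher, against 0.106% and 0.247% of all tested genes, and 13 of 54 had an unadjusted p under 0.05, beside 11.7% of all tested genes. Their median log2 fold change was -0.09, with 18 positive and 36 negative values, beside a median of 0.00 and 49.8% negative values over all tested genes. The called gene was ADAM10, a sheddase that releases EGF and BTC, in the list of ligand shedding and processing. It had 2992 counts in the control, 2753 in Knockdown1 and 1509 in Knockdown2. Most of the difference stood in Knockdown2, with ratios to the control of 0.924 (0.877 to 0.974) and 0.471 (0.442 to 0.501). The log2 fold change was -0.52 (SE 0.12, edgeR quasi-likelihood adjusted p = 0.00689), but -0.11 without Knockdown2. The adjusted p was 0.898 with robust spread estimation and 1.00 with DESeq2. ADAM17, the main sheddase of AREG, EREG, TGFA and HBEGF, is named outside the rule, with its values already seen, and had 1637, 1527 and 1616 counts (log2 fold change -0.11, SE 0.12). FURIN, a proprotein convertase, had 1561, 1866 and 2066 counts (log2 fold change 0.29, SE 0.12), and RHBDF1, which helps ADAM17 mature, had 430, 435 and 662 (log2 fold change 0.30, SE 0.16). The value of RHBDF1 was 0.02 without Knockdown2 and 0.52 without Knockdown1. RHBDF2, in the same list, went the other way with 829, 813 and 592 counts (log2 fold change -0.28, SE 0.14). It too is named outside the rule, with its values already seen.

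None of the 16 tested genes of the adaptors and the RAS-MAPK cascade passed the adjusted test, and 4 had an unadjusted p under 0.05 (11.7% of all tested genes). GAB1, a docking protein that carries EGFR signals to PI3K, had the largest change there with 336, 216 and 230 counts, its log2 fold change being -0.64 (SE 0.19, edgeR quasi-likelihood adjusted p = 0.0915). Both knockdown libraries lay at 0.646 and 0.639 of the control. BRAF, a kinase of the cascade, had 853, 643 and 779 counts (log2 fold change -0.31, SE 0.14) and HRAS, the small GTPase above it, 446, 542 and 585 (0.29, SE 0.16).

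In the PI3K-AKT and PLC branch 8 genes were tested, 2 had an unadjusted p under 0.05 (11.7% of all tested genes) and the median log2 fold change was -0.14. PIK3CA, a catalytic subunit of PI3K, had 792, 656 and 596 counts (log2 fold change -0.38, SE 0.15). AKT1, a kinase that acts downstream of PI3K, had 2598, 3097 and 3522 counts (0.30, SE 0.12).

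Of 13 feedback inhibitors 2 had an unadjusted p under 0.05, beside 11.7% of all tested genes. Their log2 fold changes were negative for 11, beside 49.8% of all tested genes, and the median was -0.08. CBL, the ubiquitin ligase that sends activated EGFR to degradation, had 3508, 2967 and 2510 counts, with a log2 fold change of -0.40 (SE 0.12, edgeR quasi-likelihood adjusted p = 0.0862). SPRED1, an inhibitor of RAS signalling, had 1057, 917 and 811 counts (-0.33, SE 0.14), and DUSP6, an ERK phosphatase, had 268, 246 and 210 (-0.28, SE 0.19). The control was the highest library for all 3 of these inhibitors, which were named for having the largest absolute changes in the list. Of all 13, 7 were below the control in both libraries and 1 was above it in both. Over all tested genes these shares were 36.8% and 37.7%. Without Knockdown2 the log2 fold changes of CBL, SPRED1 and DUSP6 were -0.24, -0.20 and -0.12, and without Knockdown1 they were -0.58, -0.48 and -0.45.

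The 12 ERK-responsive genes, 3 of them with an unadjusted p under 0.05 (11.7% of all tested genes), had a median log2 fold change of 0.02 and divided evenly in sign, 6 up and 6 down in value. JUNB, an AP-1 subunit, had 388, 544 and 684 counts with a log2 fold change of 0.61 (SE 0.16, edgeR quasi-likelihood adjusted p = 0.0508), just outside the threshold. PHLDA1, a target of ERK signalling, had 3610, 3255 and 2464 counts (-0.37, SE 0.11) and ETV5, an ETS factor, 1002, 902 and 731 (-0.34, SE 0.14). Without Knockdown2 these values were -0.14 and -0.15, and without Knockdown1 -0.65 and -0.55.

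**Figure D5:**
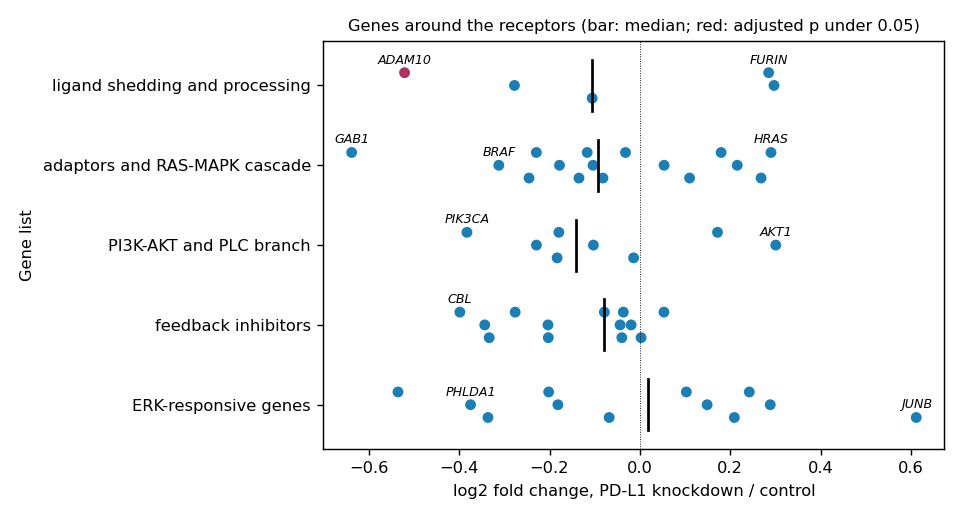
Log2 fold change of the Knockdown1 and Knockdown2 libraries against the control for the 54 tested genes of the 5 lists, 1 point per gene spread vertically for legibility, with a black bar at the median of each list and red for an adjusted p under 0.05. ADAM10 is the only red point, and the list medians lie between -0.14 and 0.02.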

How the data were processed

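RNA from 3 DU145 libraries (1 control, 2 labelled PD-L1 knockdown, Knockdown1 and Knockdown2) was enriched for poly(A) RNA and sequenced by a service company. The submitters' processing notes name Bowtie2 2.0.6, TopHat2 2.0.9, Cufflinks 2.1.1 and Cuffdiff 2.1.1, without roles. The authors deposited raw read counts for 58735 genes and FPKM values for the same genes. Each FPKM was checked to be its count over gene length, scaled by 1 constant in each library. Gene positions matched GENCODE release 29 on GRCh38 for 58724 genes. Labels and methods differ in the medium (DMEM or EMEM).

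The main test was edgeR 4.0.16 under R 4.3.3 (TMM normalization, glmQLFit and glmQLFTest) on the counts of 19849 genes with at least 10 summed counts, with Benjamini-Hochberg adjustment over all of them. The common dispersion was 0.00719, and the fit gave all genes of like mean the same spread. CPM use TMM-scaled totals. Ratios between libraries carry exact Clopper-Pearson 95% intervals, and these and the limit of 3 counts for a count of 0 cover counting error only. Knockdown1 and Knockdown2 counts gave a chi-square of 6.09 for each degree of freedom, so they are not 1 library deposited again. The test was tested on simulated data.

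Alternatives were DESeq2 1.42.0, limma 3.58.1 (limma-trend), robust spread estimation, DESeq2 size factors, library totals, count filters of 1 and 60, leaving out each knockdown library, and subtracting the mean log2 fold change of 20 classes of gene length. Members and lists were chosen with earlier results of these data known. All members were named, and from each further list the genes called and the 3 with the largest absolute log2 fold change among those with a mean of at least 100 counts. Some genes that this rule or the marker lists name are not reported here, and other assays of the study were not analysed here.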

Additional observations from a re-analysis of the deposited data

How the results depend on the processing

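The number of members called stayed at 0 in all 7 tested alternatives, with adjusted p between 0.308 and 1.00 over members and alternatives. The sign of the members' log2 fold changes was kept in 87 of 90 alternative values, the exceptions being HBEGF (0.12) and EGF (0.05) without Knockdown1 and BTC (0.15) without Knockdown2. Subtracting the mean of genes of like length moved EGFR to -0.15, ERBB2 to 0.20, AREG to -0.25 and TGFA to -0.12. The number of pathway genes called, 1 with the main test, was 2 with at least 60 summed counts, 2 with limma-trend (JUNB beside ADAM10 in both), 0 with DESeq2 and 0 with robust spread estimation. The number of all genes called, 70 with the main test, was 6 with DESeq2 and 51 to 100 elsewhere. The cause was not tested. Leaving out a knockdown library left no residual degree of freedom and so no test, and leaving out the control left no comparison. No paired analysis was possible because the control and the knockdown group share fewer than 2 replicate numbers. Depth limits EGF, whose counts of 31 to 51 leave a 95% interval of -0.99 to 0.55 on the log2 scale.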
